A study of Mus musculus with 8 samples.

Results

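The genes described here are 47 cell cycle genes listed by name: 8 cyclins and kinases of the G1 phase, 13 genes of S phase, 20 of mitosis, 3 transcription regulators and 3 inhibitors. A listed gene was measured where the array had a probe set that the annotation used here gives 1 gene symbol, and each gene was read at its brightest such probe set by the mean of the 8 arrays. That held for 46 of the 47 genes, out of 18193 genes measured in all; Ccnb1, a mitotic cyclin, had no such probe set, which left 19 mitosis genes. The study measured gene expression on 8 arrays of mouse pre-iPSCs, cells held at an incomplete stage of reprogramming to pluripotency. All cells were grown in embryonic stem cell medium and kept for 3 days with siRNA. The control group (n = 3) had siRNA against luciferase, a firefly gene that mouse cells lack. The 3XHMT group (n = 2) had siRNAs against Ehmt1, Ehmt2 and Setdb1 at once, which encode methyltransferases of lysine 9 of histone H3, and the Cbx3 group (n = 3) had siRNA against Cbx3, the gene of HP1 gamma, a protein that binds methylated histone H3 in heterochromatin. The labels name neither the founder cells nor the line, and what was repeated between the biological replicates is not stated either, so p-values measure only the spread between these samples.

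Cells pass from G1 into S phase when D-type cyclins with Cdk4 or Cdk6, and then E-type cyclins with Cdk2, phosphorylate the retinoblastoma protein and release E2F factors, which switch on genes for DNA replication. Genes of mitosis are switched on later, in G2, through Mybl2 and Foxm1, by way of promoter elements known as the CHR (cell cycle genes homology region) and the CCAAT box. Pluripotent cells in culture divide fast with a short G1 phase, and the transcripts of these genes are abundant in them. In RNA from a whole culture, fewer cells in a phase and less RNA per cell cannot be told apart.

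Array structure and targeted genes bear on every value below. The signal of a control probe set for the middle of 18S ribosomal RNA parted the arrays into 3 sets: control 3, 3XHMT 2 and Cbx3 3 at 9.98 to 10.17 (called the low-18S arrays here), control 1 and Cbx3 1 at 11.22 and 11.50 (the middle arrays), and control 2, 3XHMT 1 and Cbx3 2 at 12.57 to 12.82 (the high-18S arrays), all on the log2 scale. Deviations of the 46 genes from their group means correlated by 0.681 to 0.882 where 2 arrays shared a set but not a group; this describes arrays that share a set, across genes that are not independent. Setdb1, Ehmt2 and Ehmt1 stood at 63.2%, 66.8% and 79.6% of control in the 3XHMT group (limma adjusted p = 0.339, 1 and 1), and Setdb1 alone of the 3 did so with no overlap between the groups. The brightest Cbx3 probe set, which also matches the pseudogene Cbx3-ps5, stood at 42.8% of control in the Cbx3 group (limma adjusted p = 0.0453 over all probe sets). Others that match both stood at 37.9%, 43.9% and 79.0% (0.0465, 0.0525 and 0.967). The only probe set given to Cbx3 alone was dim, with a control mean of 6.03, and stood at 82.9% (0.988). Of 14 markers of pluripotent cells, Pou5f1 lay between 12.59 and 13.23 on all arrays, while others differed between the groups. Nanog lay at 4.87 to 5.41 in control, 7.72 to 8.15 in 3XHMT and 7.79 to 9.28 in Cbx3, and was higher than control in both knockdowns (adjusted p = 0.0434 and 0.0151, limma). Zfp42 and Dppa4 were higher in 3XHMT than in control (adjusted p = 0.0452 and 0.0135) and than in Cbx3 (0.0151 and 0.00546), and no other of the 14 was called. The summed signal of the 14 lay at 13.86 to 14.28 in control, 14.32 to 14.54 in 3XHMT and 13.96 to 14.13 in Cbx3, and the part of this marker shift in the values below was not tested. The summed signal of 14 fibroblast genes lay at 9.62 to 9.90 in control, 9.74 to 10.10 in 3XHMT and 9.59 to 9.78 in Cbx3, and that of 11 macrophage and blood genes at 9.69 to 9.91, 9.74 to 9.79 and 9.73 to 10.16.

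The genes of S phase and mitosis carried different letters around their starts. RefSeq promoter windows (assembly GRCm38.p6, 250 bases before to 50 after the start) were found for 11 S phase and 16 mitosis genes and were searched on both strands for E2F letters (TTTCGCGC, TTTGGCGC, TTTCCCGC or TTTGCCGC), CHR letters (TTTGAA or TTCGAA) and the CCAAT box. E2F letters stood in 6 of the 11 S phase genes and in 1 of the 16 mitosis genes, against 3.81% of 14453 measured genes with a window. CHR letters stood in 13 of the 16 mitosis genes and 2 of the 11 S phase genes, against 17.5%, and the CCAAT box in 14 and 8, against 42.0%. Some genes held these letters only after the start, among them Cdt1 (E2F) and Plk1 (CHR). A match describes letters, not a bound site. The stretches below are the 3 windows of each role with most upstream matches to that role's letters (Cdc6 and Mcm7 tied, and Cdc6 was taken by alphabet), and they show the 190 bases before the start on the gene's strand, with E2F, CHR and CCAAT matches in capitals; neighbouring matches that overlap form 1 run. They lie at chr1:128359706-128359895 (minus strand, Mcm6), chr8:75109319-75109508 (plus, Mcm5), chr11:98907961-98908150 (plus, Cdc6), chr11:99024190-99024379 (minus, Top2a), chr10:69352913-69353102 (minus, Cdk1) and chr7:135716380-135716569 (minus, Mki67).
Mcm6: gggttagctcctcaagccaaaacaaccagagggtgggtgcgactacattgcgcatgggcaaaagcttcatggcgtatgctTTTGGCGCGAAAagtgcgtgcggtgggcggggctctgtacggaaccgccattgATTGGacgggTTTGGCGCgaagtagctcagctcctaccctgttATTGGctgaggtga
Mcm5: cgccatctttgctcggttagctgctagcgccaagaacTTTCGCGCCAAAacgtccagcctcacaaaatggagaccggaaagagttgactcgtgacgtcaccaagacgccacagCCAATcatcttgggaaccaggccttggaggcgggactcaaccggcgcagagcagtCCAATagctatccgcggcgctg
Cdc6: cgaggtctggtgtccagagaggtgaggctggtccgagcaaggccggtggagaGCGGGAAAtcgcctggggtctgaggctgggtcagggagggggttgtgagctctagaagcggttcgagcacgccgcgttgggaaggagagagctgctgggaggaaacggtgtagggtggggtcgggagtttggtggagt
Top2a: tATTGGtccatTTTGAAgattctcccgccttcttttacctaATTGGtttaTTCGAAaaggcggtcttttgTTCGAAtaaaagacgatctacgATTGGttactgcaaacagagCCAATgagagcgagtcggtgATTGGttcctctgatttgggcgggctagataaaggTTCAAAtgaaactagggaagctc
Cdk1: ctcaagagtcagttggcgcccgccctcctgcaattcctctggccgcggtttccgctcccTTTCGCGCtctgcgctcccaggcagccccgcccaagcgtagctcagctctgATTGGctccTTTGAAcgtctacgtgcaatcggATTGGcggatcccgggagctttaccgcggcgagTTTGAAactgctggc
Mki67: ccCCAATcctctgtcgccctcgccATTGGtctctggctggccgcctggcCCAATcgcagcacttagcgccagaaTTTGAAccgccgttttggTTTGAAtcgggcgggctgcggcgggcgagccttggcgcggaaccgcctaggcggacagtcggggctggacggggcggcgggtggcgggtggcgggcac
The 2 S phase genes Mcm6 and Mcm5, subunits of the replicative helicase, each hold an overlapping pair of E2F matches, while Top2a, the DNA topoisomerase that untangles sister chromatids, holds 4 CHR matches in this stretch. Cdk1, the kinase that drives entry into mitosis, holds letters of all 3 kinds.

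No cell cycle gene changed at an adjusted p under 0.05 in any comparison of the groups. With limma on all 8 arrays, 0 of 46 genes were called in 3XHMT against control (0.231% of all genes were), 0 of 46 in Cbx3 against control (0.445%) and 0 of 46 in 3XHMT against Cbx3 (1.51%). At an unadjusted p under 0.05 the counts were 0 of 46 in 3XHMT against control (5.27% of all genes), 2 of 46 in Cbx3 against control (9.56%) and 2 of 46 in 3XHMT against Cbx3 (11.4%). The genes in the last 2 counts were Ccnd3 and Cdk4 each time. The 95% interval of the difference lay within 2-fold in both directions for 44 genes in 3XHMT against control, for 45 in Cbx3 against control and for 44 in 3XHMT against Cbx3. These were 95.7%, 97.8% and 95.7% of the 46, beside 91.2%, 91.4% and 87.4% of all genes. Cenpe and Cenpf, which encode large kinetochore proteins, were the exceptions in the first and last of these comparisons, and Cenpe in the other. The median difference of the 46 genes was 0.02 on the log2 scale in 3XHMT and -0.05 in Cbx3 against control, beside 0.01 in both over all genes. These 2 comparisons share their control arrays.

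**Figure D1:**
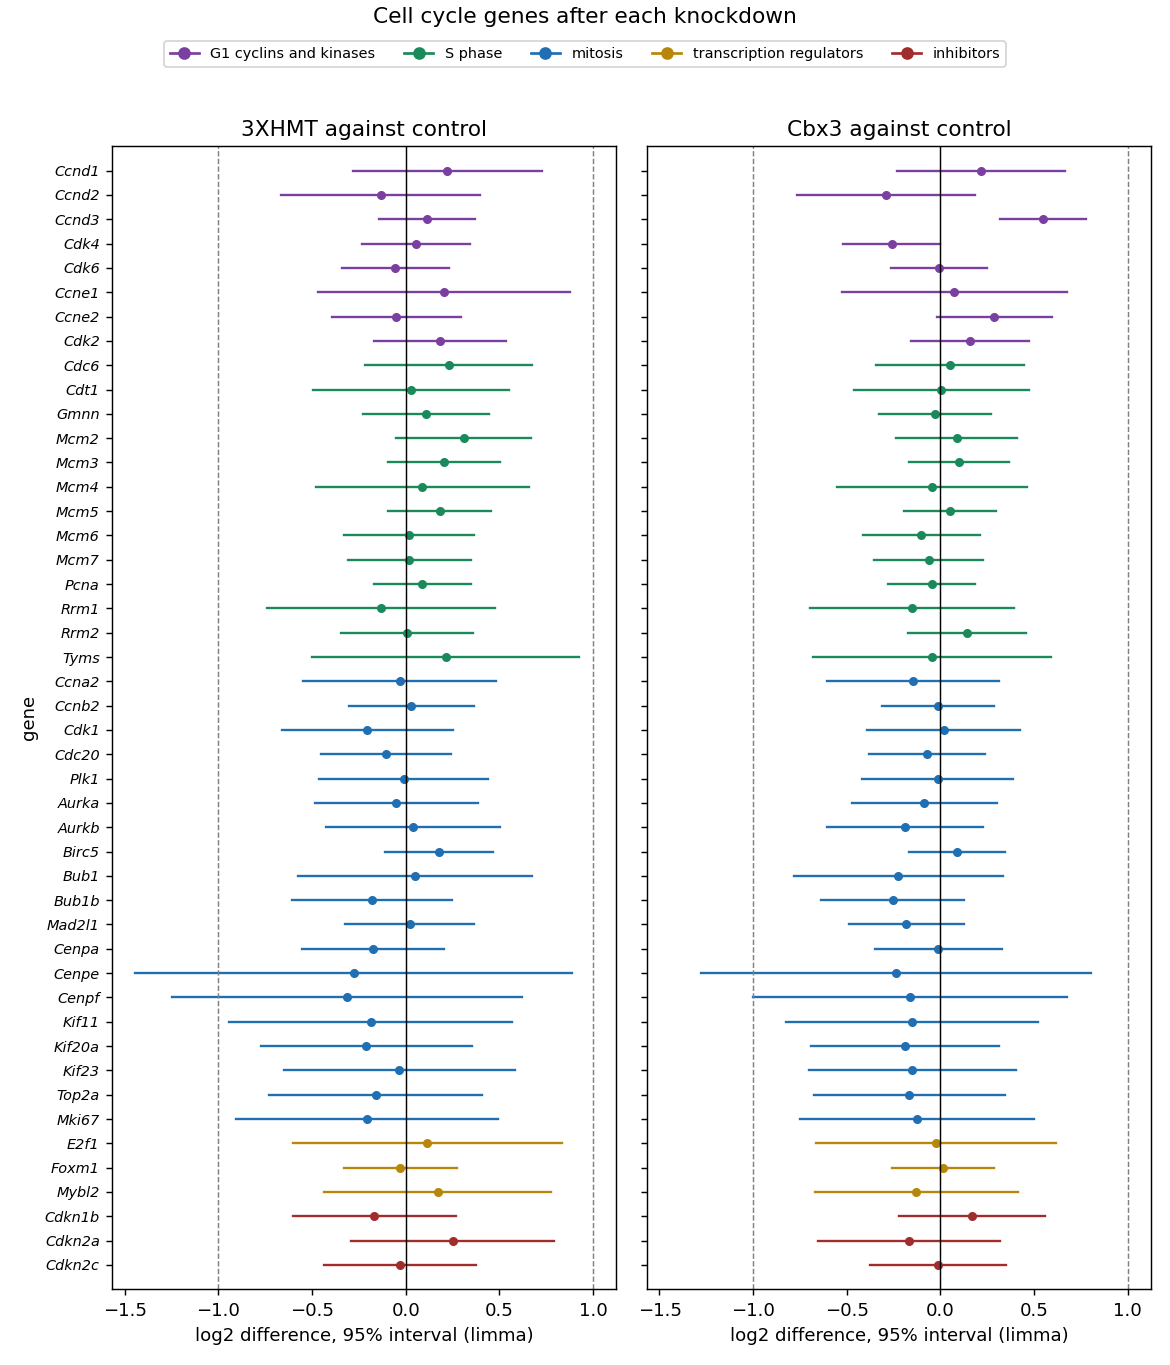
Log2 difference of each cell cycle gene from the control group (points) with its 95% interval from limma (lines), coloured by role, for 3XHMT (left) and Cbx3 (right); dashed lines mark a 2-fold change. Ccnd3 in Cbx3 lies farthest from 0 relative to its interval, at 0.55, and the intervals of Cenpe are the widest.

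Among the G1 genes, Ccnd3 stood higher and Cdk4 lower in the Cbx3 group. Ccnd3, which encodes cyclin D3, a partner of Cdk4 and Cdk6, had log2 signals of 10.60, 10.70 and 10.65 in control 1 to 3, 10.83 and 10.70 in 3XHMT 1 and 2, and 11.24, 11.22 and 11.13 in Cbx3 1 to 3. All 3 Cbx3 arrays were above every other array, and the control and 3XHMT arrays overlapped. Ccnd3 was 0.55 ± 0.10 (SE) higher in Cbx3 than in control, or 1.46-fold with a 95% interval of 0.32 to 0.78 in log2, with an unadjusted p of 0.000524 and an adjusted p of 0.074 (limma). Over 19 alternative settings the adjusted p ran from 0.0102 to 0.994. It was 0.0102 with the 18S set as a block, where 6.59% of all genes were called. It was 0.011 with the replicate number as a block among control and Cbx3 arrays, where 7.96% were. Set and replicate number part those arrays alike, so the 2 blocks are not separate support. The difference within the low, middle and high sets was 0.48, 0.64 and 0.51. The difference rests on 1 probe set: the 2 others for Ccnd3 were dimmer, with means of 7.08 and 4.57, and gave -0.09 and -0.13. Ccnd3 was also 0.43 ± 0.11 (SE) lower in 3XHMT than in Cbx3 (adjusted p = 0.127, and 0.0403 to 0.989 over 18 alternatives, the lowest with the 18S set as a block).

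Cdk4, the kinase that cyclin D3 activates, lay at 11.80, 11.94 and 12.03 in control, 11.90 and 12.06 in 3XHMT and 11.61, 11.61 and 11.77 in Cbx3. All 3 Cbx3 arrays lay below every other array. The difference of -0.26 ± 0.11 (SE) from control had an unadjusted p of 0.0487 and an adjusted p of 0.517 (limma), and the 3 probe sets of the gene gave -0.26, -0.27 and -0.18. Ccne2, which encodes cyclin E2, a partner of Cdk2, lay at 8.89, 8.93 and 8.78 in control, 8.87 and 8.77 in 3XHMT and 9.20, 9.36 and 8.91 in Cbx3. Cbx3 3 lay within the control range and the other 2 Cbx3 arrays above it, for a difference of 0.29 ± 0.13 (SE; adjusted p = 0.567). Of the 8 G1 genes, Ccnd3 was the only one above control with no overlap (7.52% of all genes) and Cdk4 the only one below (6.78%) in Cbx3. Ccnd2, which encodes cyclin D2, was singled out after its values were seen, for its 7 probe sets: all were lower in Cbx3 than in control, by 0.12 to 0.33 in size, and the brightest gave -0.29 ± 0.21 (SE; adjusted p = 0.829). The 7 Ccnd2 probe sets also read lower in 3XHMT than in the same control arrays, at -0.03 to -0.29. In 3XHMT against control no G1 gene stood clear of overlap (16.4% of all genes), and their median difference was 0.09.

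**Figure D2:**
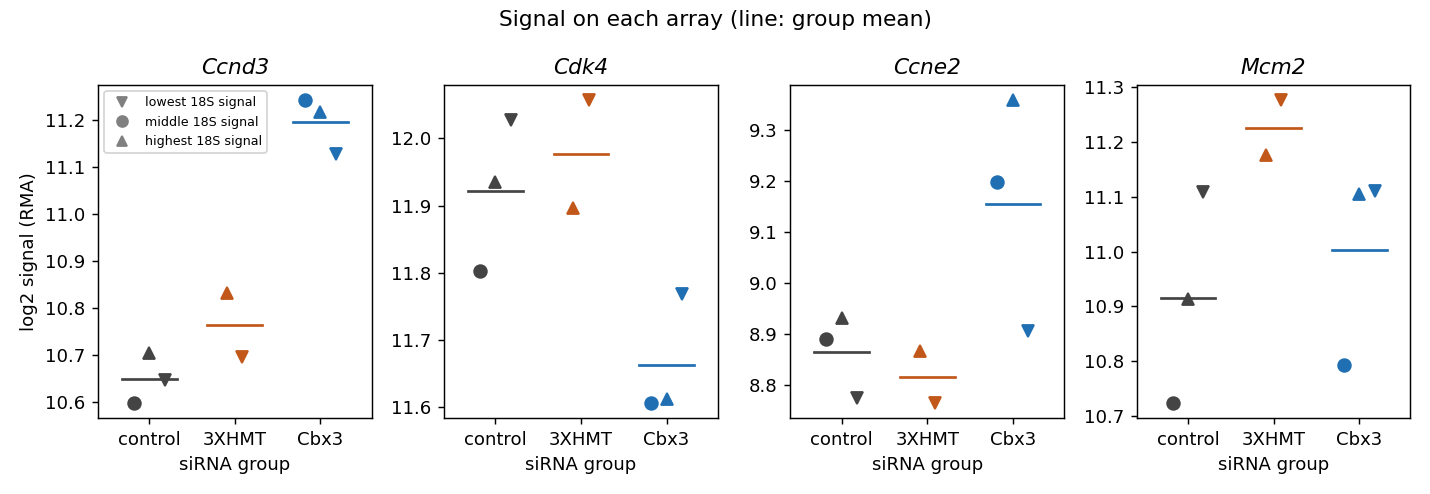
Log2 signal of Ccnd3, Cdk4, Ccne2 and Mcm2 on each of the 8 arrays, with a line at each group mean and the marker shape giving the 18S set; axes differ between panels. For Ccnd3 the 3 Cbx3 arrays sit between 11.13 and 11.24, above the other 5 arrays, which end at 10.83.

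Most S phase genes read slightly higher in 3XHMT than in control, and none passed the test. The difference was above 0 for 12 of 13 genes, with a median of 0.09 and a range of -0.13 to 0.31 in log2, and 3 genes (Mcm2, Mcm5 and Pcna) stood above control with no overlap (9.28% of all genes). Rrm1, a subunit of ribonucleotide reductase, was the 1 gene below. Mcm2, a subunit of the helicase that unwinds DNA at the fork, lay at 10.72, 10.91 and 11.11 in control, 11.18 and 11.28 in 3XHMT and 10.79, 11.10 and 11.11 in Cbx3. Both 3XHMT arrays lay above all the others, by 0.31 ± 0.16 (SE) over control (adjusted p = 1, unadjusted p = 0.0822, limma), and its other probe set gave 0.35. Mcm5, of the same helicase, lay at 12.36, 12.39 and 12.18 in control, 12.49 and 12.49 in 3XHMT and 12.33, 12.46 and 12.30 in Cbx3. The 3XHMT arrays again lay above the rest, by 0.18 ± 0.12 (SE) over control, although the dimmest of its 3 probe sets gave -0.43. Mcm3 lay at 11.22, 11.27 and 11.37 in control, 11.36 and 11.63 in 3XHMT and 11.29, 11.45 and 11.42 in Cbx3. Here 3XHMT 2 was the highest array and 3XHMT 1 lay within the control range. All 5 probe sets of the gene read higher in 3XHMT than in control, by 0.12 to 0.41. They also read higher in Cbx3 than in control, by 0.07 to 0.23.

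The S phase pattern was small, and its median turned negative when 3XHMT 2 was left out. Shifts of this median on leaving out single arrays were less than the spread between replicates. That spread was larger than the median itself, so this does not show that the pattern held. Within the 18S sets, 10 of 13 genes were higher in 3XHMT 1 than in control 2 (median 0.06) and 10 of 13 in 3XHMT 2 than in control 3 (median 0.09), and 8 of 13 were higher in both pairs, beside 27.3% of all genes. Without 3XHMT 2 the median difference was -0.01, and without 3XHMT 1 it was 0.20, in fits where the lone 3XHMT array is assumed to vary like the other groups. That array is a high-18S one in the first fit and a low-18S one in the second, while the control arrays span all 3 sets. In Cbx3 against control, 6 of 13 S phase genes were higher and 7 lower, with a median of -0.03, and no gene stood clear of overlap (14.3% of all genes). Within the sets, 12 of 13 were higher in Cbx3 2 than in control 2, while 9 of 13 were lower in Cbx3 1 and 9 of 13 in Cbx3 3 than in their control arrays. Tyms, the thymidylate synthase, was the only listed gene below the median signal of all genes, and its 4 probe sets all had means under 5.06.

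Mitosis genes mostly read lower in both knockdown groups, again with none past the test. In 3XHMT against control 14 of 19 were lower, with a median of -0.11 and a range of -0.31 to 0.18. In Cbx3 against control 17 of 19 were lower, with a median of -0.15 and a range of -0.25 to 0.09; leaving out 1 array gave medians of -0.25 (without control 2) to -0.048 (without control 3), with -0.093, -0.087 and -0.24 without Cbx3 1, 2 and 3. None of the 19 stood clear of overlap with control in either group (7.10% and 6.78% of all genes were lower without overlap). Bub1b, a kinase of the spindle checkpoint, lay at 10.53, 10.27 and 10.64 in control, 10.03 and 10.56 in 3XHMT and 10.16, 10.14 and 10.36 in Cbx3. Cbx3 1 and 2 lay below all control arrays and Cbx3 3 among them, for a difference of -0.25 ± 0.17 (SE; adjusted p = 0.788, limma). Mad2l1, which encodes the checkpoint protein Mad2, lay at 12.27, 12.18 and 12.49 in control, 12.20 and 12.46 in 3XHMT and 12.01, 12.10 and 12.28 in Cbx3. Its Cbx3 and control arrays overlapped through Cbx3 3, with a difference of -0.18 ± 0.13 (SE; adjusted p = 0.849). Birc5, the survivin subunit of the chromosomal passenger complex, lay at 11.63, 11.68 and 11.47 in control, 11.66 and 11.88 in 3XHMT and 11.64, 11.74 and 11.67 in Cbx3. It was the 1 mitosis gene that read higher in both groups, by 0.18 ± 0.13 and 0.09 ± 0.11 (SE; adjusted p = 1 and 0.952).

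The size of the mitosis difference, and in 3XHMT the sign of its median, varied from array to array within a group. In 3XHMT 1 against control 2, 17 of 19 were lower with a median of -0.20, whereas in 3XHMT 2 against control 3, 9 of 19 were lower with a median of 0.02. In both pairs 8 of 19 (42.1%) were lower, beside 29.5% of all genes. Leaving out 3XHMT 2 moved the median of 3XHMT against control to -0.37, and leaving out 3XHMT 1 moved it to 0.23. Both fits set a 3XHMT array of a single 18S set against control arrays of all 3 sets. The median was -0.049 without control 1, -0.16 without control 2 and -0.032 without control 3. In the Cbx3 group 18 of 19 were lower in Cbx3 1 than in control 1 (median -0.26) and 13 of 19 in Cbx3 3 than in control 3 (median -0.19), but 10 of 19 in Cbx3 2 than in control 2 (median -0.002). Across all 3 sets, 7 of 19 genes were lower in Cbx3 each time, beside 20.1% of all genes. Plk1, a kinase of mitotic entry that was singled out after its values were seen, shows the contrast: it read 0.41 lower in 3XHMT 1 and 0.42 higher in 3XHMT 2 than in the control array of the same set.

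**Figure D3:**
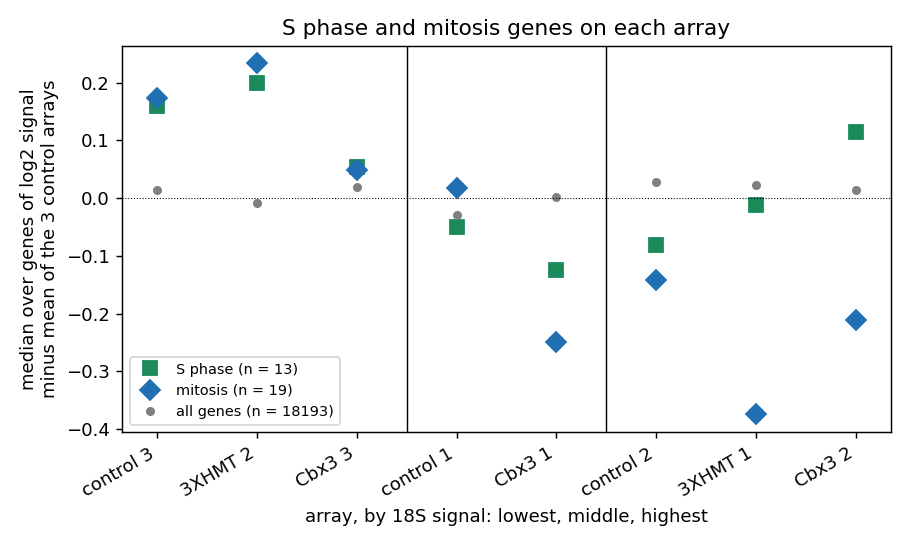
Median over the 13 S phase genes (squares), the 19 mitosis genes (diamonds) and all 18193 genes (dots) of the log2 signal minus the mean of the 3 control arrays, on each array, ordered by 18S set. The mitosis median runs from -0.37 on 3XHMT 1 to 0.23 on 3XHMT 2, while the median of all genes stays between -0.03 and 0.03.

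No transcription regulator or inhibitor of the cycle passed the test. Against control, Cdkn2a in 3XHMT was the only one without overlap, and it lay above control, as did 9.28% of all genes without overlap. E2f1, a factor that activates S phase genes, lay at 8.19, 8.47 and 7.72 in control, 8.53 and 7.95 in 3XHMT and 8.24, 8.48 and 7.58 in Cbx3. The lowest array of each group was the low-18S array, and the groups overlapped, with differences of 0.11 ± 0.31 and -0.02 ± 0.28 (SE) from control. Mybl2, which encodes B-Myb, an activator of mitosis genes, lay at 9.48, 9.60 and 8.83 in control, 9.67 and 9.27 in 3XHMT and 9.39, 9.30 and 8.84 in Cbx3. It too was lowest on the low-18S array of each group. Foxm1, the forkhead factor that works with it, lay at 8.36, 8.71 and 8.53 in control, 8.45 and 8.57 in 3XHMT and 8.49, 8.58 and 8.57 in Cbx3. Its groups overlapped and its differences from control were -0.03 ± 0.13 and 0.01 ± 0.12 (SE).

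Of the inhibitors, Cdkn2a, whose locus encodes p16 and p19Arf, lay at 8.94, 9.12 and 9.08 in control, 9.46 and 9.13 in 3XHMT and 8.56, 8.69 and 9.39 in Cbx3. Both 3XHMT arrays lay above control, 3XHMT 2 by little, and the Cbx3 arrays lay on both sides of it. Its differences were 0.25 ± 0.24 and -0.17 ± 0.21 (SE; adjusted p = 1 and 0.954, limma), and the 1 probe set does not tell the 2 products apart. Cdkn1b, which encodes p27, an inhibitor of cyclin E with Cdk2, lay at 11.12, 11.14 and 10.67 in control, 10.84 and 10.78 in 3XHMT and 11.34, 11.23 and 10.87 in Cbx3. The 3XHMT arrays lay below all Cbx3 arrays, by 0.34 ± 0.19 (SE; adjusted p = 0.617), and both groups overlapped with control. Cdkn2c, which encodes p18, lay at 8.59, 8.55 and 8.49 in control, 8.56 and 8.47 in 3XHMT and 8.63, 8.79 and 8.18 in Cbx3, with the Cbx3 arrays on both sides of control.

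Tested directly against Cbx3, the 3XHMT arrays read higher for 31 of the 46 genes, with a median of 0.06. No overlap was found for 4 genes above Cbx3 (Cdk4, Mcm2, Mcm5 and Pcna; 13.2% of all genes) and 3 below (Ccnd3, Ccne2 and Cdkn1b; 13.5%), together 7 of 46 beside 26.7%. Of the S phase genes 12 of 13 were higher in 3XHMT, with a median of 0.13, yet within the 18S sets the pairs pointed apart: 10 of 13 were lower in 3XHMT 1 than in Cbx3 2, and 12 of 13 higher in 3XHMT 2 than in Cbx3 3. The mitosis genes divided alike, with 17 of 19 lower in the first pair and 16 of 19 higher in the other. The S phase median was -0.03 without 3XHMT 2, 0.27 without 3XHMT 1 and 0.080 without Cbx3 1. The fits without a 3XHMT array set the remaining one, of a single 18S set, against Cbx3 arrays of all 3 sets.

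Arrays of 1 group differed more from each other in these genes than the groups did. Over the 8 arrays, group accounted for a median of 15% of a cell cycle gene's variation and the 18S set for 61.9%, where all genes had medians of 25.3% and 39.8%. The share that went with the set was the greater for 41 of 46 genes (89.1%), beside 59.9% of all genes. Ccnd3 was the clearest case of the other kind, with 95.7% by group and 3.29% by set, while Mcm4 had 4.13% and 96.7%. Cdk4, Ccne2, Mcm5 and Birc5 also had more of their variation by group than by set. With the set as a block the median standard error of the Cbx3 difference was 0.103 over the 46 genes, in place of 0.172, and Ccnd3 was the only one of them called in Cbx3 against control and in 3XHMT against Cbx3 (9.12% of all genes in the latter); none was called in 3XHMT against control (1.76%).

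**Figure D4:**
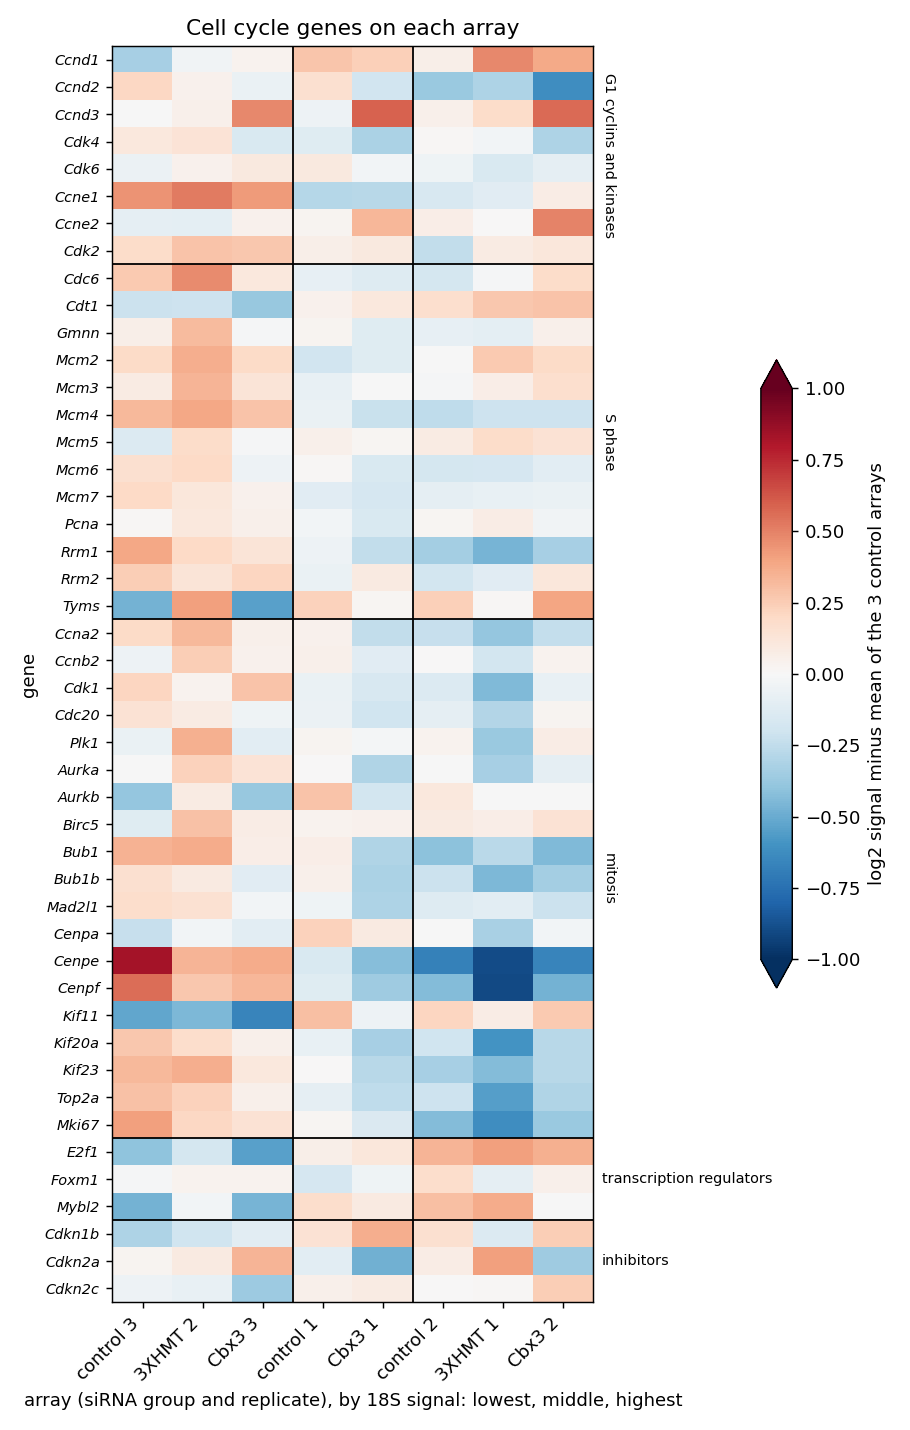
Log2 signal of 46 cell cycle genes minus the mean of the 3 control arrays, on each of the 8 arrays; columns are ordered by 18S set (vertical lines) and rows by role (horizontal lines), red is higher and blue lower. Cenpe, Cenpf, Bub1, Mki67, Mcm4 and Rrm1 are red on the left block and blue on the right one, Kif11, E2f1 and Cdt1 the reverse, and Ccnd3 is red on the 3 Cbx3 columns.

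The low-18S array of each group read higher than its high-18S array for most mitosis genes. That held in all 3 groups for 12 of 19 mitosis genes (63.2%) and 6 of 13 S phase genes (46.2%), beside 23.4% of all genes. Cenpe, a kinesin that carries chromosomes to the spindle equator, was singled out after its values were seen as the widest case. It lay at 9.92, 9.40 and 10.91 in control, 9.19 and 10.41 in 3XHMT and 9.65, 9.42 and 10.45 in Cbx3, so that the low-18S array was the highest of each group, by 1.51, 1.23 and 1.03 over the high-18S array. Cenpf (0.99, 1.17 and 0.80), Mki67, the proliferation marker Ki-67 (0.85, 0.83 and 0.52), Bub1, a checkpoint kinase (0.77, 0.65 and 0.51), and Rrm1 (0.73, 0.66 and 0.46) followed it. E2f1 (-0.75, -0.58 and -0.89), Cdt1, a licensing factor (-0.38, -0.47 and -0.66), Ccnd1, which encodes cyclin D1 (-0.39, -0.51 and -0.34), and Mybl2 (-0.77, -0.40 and -0.46) went the other way in each group. These further examples were also picked after their values were seen. Each of the 3 probe sets of Ccnd1 and of E2f1 also read lower in control 3 than in control 2.

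Probe sets of 1 gene did not always share this pattern. Kif11, the kinesin that pushes spindle poles apart, had 2 probe sets of nearly equal brightness, with means of 9.77 and 9.75, and in control 3 against control 2 they gave -0.73 and 0.60, while its dimmer one gave 0.71. Between the groups the 3 probe sets of Kif11 shared a direction, at -0.15, -0.30 and -0.31 in Cbx3 against control. Over all 46 genes, 33 had several probe sets, and these disagreed in sign for 15 genes in 3XHMT and 14 in Cbx3 against control. The 3' minus 5' signal of the Gapdh control probe sets, a sign of RNA integrity, lay at 0.05 to 0.23 on the low-18S arrays and at -0.16 to -0.06 on the others, and that of Actb was 0.60 on control 3 and 0.17 to 0.28 on the rest. Their part in these differences was not tested.

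**Figure D5:**
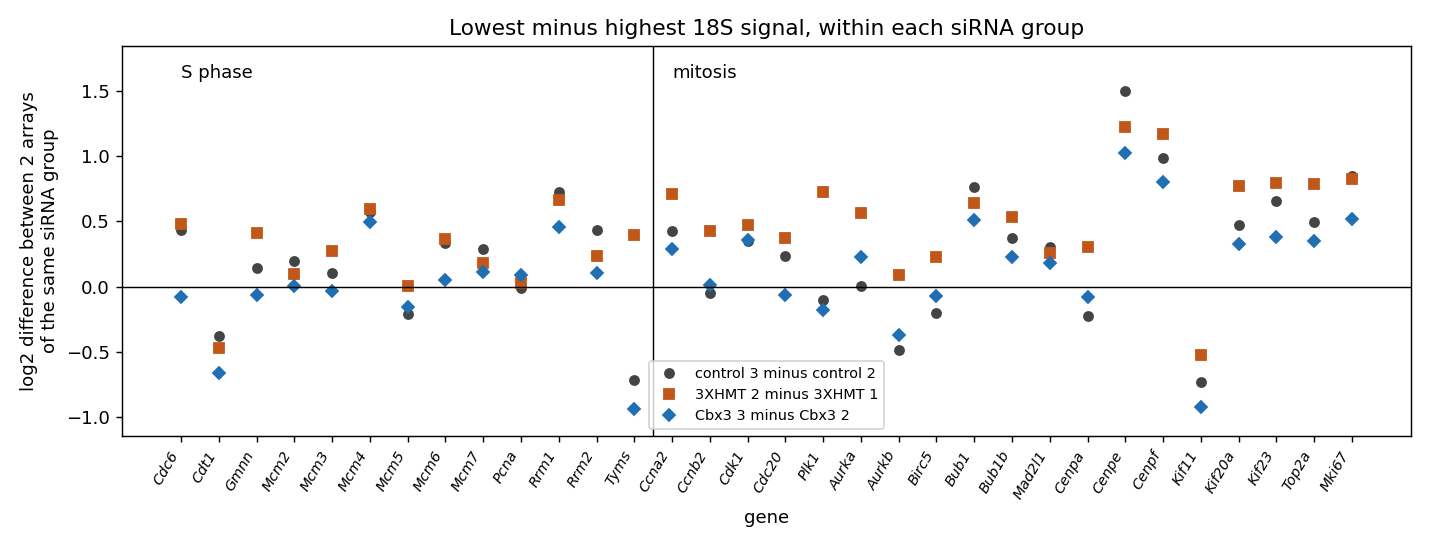
Log2 difference between the low-18S and the high-18S array of the same siRNA group, for each S phase and mitosis gene; circles are control, squares 3XHMT and diamonds Cbx3. For Cenpe the 3 groups lie at 1.51, 1.23 and 1.03, and for Kif11 at -0.73, -0.52 and -0.93 with the probe set used.

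Wider lists of the same pathways, which leave out the genes above and hold 156 measured genes in all, gave 1 call. The counts were 0 of 156 in 3XHMT against control (0.231% of all genes), 0 of 156 in Cbx3 against control (0.445%) and 1 of 156, or 0.641%, in 3XHMT against Cbx3 (1.51%). Of 44 other DNA replication genes, 34 read higher in 3XHMT than in control (median 0.11) and 33 lower in Cbx3 than in control (median -0.07), with 0 called each time. Within the 18S sets, 30 and 33 of 44 were higher in 3XHMT 1 and 3XHMT 2 than in control. For Cbx3, 38 were lower in Cbx3 1 and 31 in Cbx3 3, but 25 were higher in Cbx3 2 than in control 2 (median 0.03). In 3XHMT against Cbx3, 39 of the 44 were higher, with a median of 0.20, and 18 of 44 did so without overlap (13.2% of all genes). Both pairs within the 18S sets pointed this way, with 27 of 44 higher in 3XHMT 1 than in Cbx3 2 (median 0.07) and 42 of 44 in 3XHMT 2 than in Cbx3 3 (median 0.29), and 27 of 44 (61.4%) were higher in both, beside 30.1% of all genes. Of 50 other mitosis genes 34 were lower in 3XHMT and 40 in Cbx3 against control, with medians of -0.09 and -0.12, and 0 were called. Within the sets, 46 of 50 were lower in 3XHMT 1 than in control 2, but 27 were higher in 3XHMT 2 than in control 3. In Cbx3 1, 2 and 3, 45, 31 and 36 were lower than in the control array of the set. Of 24 genes of G1 and the Rb and E2F families, 1 was called: Tfdp2, which encodes a dimer partner of E2F factors, in 3XHMT against Cbx3. It lay at 10.16, 10.04 and 10.43 in control, 10.48 and 10.70 in 3XHMT and 9.74, 9.81 and 9.69 in Cbx3. Control lay between the other groups with no overlap on either side, and 3XHMT was 0.84 ± 0.14 (SE) above Cbx3, or 1.79-fold (adjusted p = 0.0329, and 0.0059 to 0.283 over 18 alternatives). Of 22 other inhibitors and checkpoint genes and 16 genes of the anaphase-promoting complex and its regulators, 0 were called in each comparison.

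With the 18S set as a block, 8 of these 156 pathway genes (5.13%) were called in Cbx3 against control, a share no greater than the 6.59% of all genes. Rb1, the retinoblastoma gene, lay at 10.72, 9.99 and 10.80 in control and 9.98, 9.61 and 9.97 in Cbx3, and each Cbx3 array lay below every control array, Cbx3 1 only just below control 2. Its difference of -0.65 had an adjusted p of 0.0175 with that block and 0.347 without it (0.0112 to 0.955 over 19 alternatives). Btg2, an antiproliferative gene, lay at 10.31, 10.62 and 10.09 in control and 10.97, 11.22 and 11.06 in Cbx3, above control on every array. Its difference of 0.74 had an adjusted p of 0.00456 with the block and 0.118 without it (0.00456 to 0.382 over 19 alternatives). Pola1, the catalytic subunit of DNA polymerase alpha, gave -0.65 (0.00809 with the block, up to 0.996 over the alternatives). Its difference ran from -0.88 to 0.02 over those alternatives. Orc3, Kif18a, Tfdp2, Ccnc and Cdkn3 were also lower with the block. In 3XHMT against Cbx3 with that block, Pola1, Tfdp2, the cyclin genes Ccnc and Ccnh and the checkpoint kinases Atm and Chek2 were higher, and Sfn and Anapc10 lower. These were again 8 of 156 (5.13%), below the 9.12% of all genes, and in 3XHMT against control 0 of 156 were called beside 1.76%. Over 18 alternatives the 3XHMT against Cbx3 differences of Ccnc (-0.36 to 0.72) and Pola1 (-0.13 to 0.78) changed sign. Those of the other genes called there kept theirs.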

How the data were processed

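The deposited table holds log2 expression values of 45101 probe sets on 8 arrays, which the authors made with RMA, per the submitters' processing notes (version and settings: not given in the sources used here). RMA equalizes the arrays' distributions, so a shift shared by most genes is removed. Array medians lay between 5.87 and 5.90, and precision is limited by how few arrays there are. Of the probe sets, 34945 had 1 gene symbol in the platform annotation, for 18193 genes, each read at its brightest probe set.

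A limma model (version 3.58.1, under R 4.3.3) with 1 mean per group took in all 8 arrays, leaving 5 residual degrees of freedom; tests were two-sided after eBayes, with Benjamini-Hochberg adjustment over all genes and a threshold of 0.05. Every adjusted p comes from such a fit. The script was tested on simulated data. No p was adjusted over the cell cycle genes alone. The members, the lists, the 18S sets and the rule for named genes were chosen with earlier results of these data known. By that rule, values on every array are given for members called without or with the 18S set as a block. They are also given for the 3 of each role with the lowest p. Ccnd2, Plk1 and Cenpe lie outside the rule and are marked in the text. Further members outside it, such as Cenpf, Mki67, Bub1, Rrm1, Cdt1, Ccnd1 and Kif11, were also picked after their values were seen.

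Replicate numbers come from the labels. Deviations from group means correlated over all genes by 0.570, 0.585 and 0.744 between same-numbered control and Cbx3 arrays, so the numbers pair those arrays. They do not pair the 3XHMT arrays with control, at 0.106 and -0.560. Alternatives were other probe sets, filters, normalization, blocks and leaving out each array.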

Additional observations from a re-analysis of the deposited data

Results flagged for a closer look

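Tfdp2 was the 1 gene of the cell cycle lists whose difference between the knockdown groups passed the test: it read 0.84 higher in log2 in 3XHMT than in Cbx3 (limma adjusted p = 0.0329). It read 0.38 higher in 3XHMT and 0.46 lower in Cbx3 than in control, neither past the test. Its call was lost in 6 of the 8 fits that leave out 1 array, with adjusted p up to 0.234, and at its second probe set (0.45, adjusted p = 0.283) and the mean of its probe sets (0.49, adjusted p = 0.171).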

How the results depend on the processing

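Counts of genes called over the whole table moved with most settings, and the count of cell cycle genes rarely did. Against control, 42 genes were called in 3XHMT and 81 in Cbx3, and 275 between the knockdowns; counts follow in that order. They were 320, 1199 and 1660 with the 18S set as a block and 97, 312 and 655 with a replicate block. Without genes below the median signal they were 0, 30 and 127; with the second probe set 24 in 3XHMT against control and 165 in 3XHMT against Cbx3; and with only the groups compared in the fit 10 in 3XHMT and 27 in Cbx3 against control. Leaving out 1 array gave 3 to 22, 2 to 34 and 22 to 273, and leaving out an array of 3XHMT leaves 1, which is assumed to vary like the other groups. 2 settings were chosen after seeing the data. Without the low-18S arrays the counts were 7, 0 and 27 (limma), and a replicate block in control and Cbx3 arrays alone gave 1448.

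Of the cell cycle genes, 1 was called with the 18S set as a block in Cbx3 against control and 1 in 3XHMT against Cbx3, and 1 with the replicate block in control and Cbx3 arrays; it was Ccnd3 each time. In the other 52 of 55 counts the number was 0. The replicate block over all 8 arrays gave Ccnd3 an adjusted p of 0.0597.

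Of 275 role medians, 257 moved by less than the spread between replicates. That spread can exceed the median itself, as it did for S phase genes in 3XHMT against control. Leaving out 1 array gave, against control in 3XHMT, -0.012 to 0.085 for G1 genes and -0.37 to 0.23 for mitosis genes; against control in Cbx3, 0.014 to 0.20 for G1 genes and -0.071 to 0.16 for inhibitors; and in 3XHMT against Cbx3, -0.11 to 0.089 for G1 genes, -0.031 to 0.27 for S phase genes, -0.25 to 0.33 for mitosis genes and -0.19 to 0.11 for inhibitors. The second probe set gave G1 medians of -0.047 in 3XHMT and -0.011 in Cbx3. Without the low-18S arrays the S phase median in 3XHMT against Cbx3 was -0.015 and that of inhibitors in Cbx3 against control 0.14. Without probe sets that can match several transcripts the median of inhibitors in 3XHMT against Cbx3 was -0.18. Of 1534 values of single genes, 1447 stayed as in the main fit, 49 moved without a call, 29 gained a call and 9 lost one. None (0) reversed a call, but Tfdp2 in 3XHMT against Cbx3 was the only call of the main fit, so few could. Signs of uncalled differences did change: over the alternatives Ccnd3 in Cbx3 against control ran from -0.09 to 0.58. The value of -0.09 was that of its second probe set. The cause of the other shifts was not tested.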
